A study of Mus musculus with 4 samples.

Results

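The transcriptional coactivators YAP and TAZ, their DNA-binding partner TEAD1, 3 of their regulators and 4 of their best known target genes were followed in cultured mouse endothelial cells. The 10 genes, Yap1, Wwtr1 (which encodes TAZ), Tead1, Lats2, Amotl1, Amotl2, Ccn1, Ccn2, Thbs1 and Ankrd1, were chosen by symbol from the 27179 rows of the deposited count table, with their counts in the conditioned medium and control libraries already known. All 10 had a row and all 10 passed the filter on low counts. Their differences between the groups are therefore given as a description, without a test.

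The cells were mAEC, a murine aortic endothelial line that serves as a culture model of the inner lining of a large artery. The first group received conditioned medium, the supernatant of macrophages positive for the inflammatory cytokine TNFα and for the macrophage marker CD68, and the control group grew in normal medium. Each group held 2 libraries, called biological replicates by the series, and no genetic change is named for either group. The macrophages were not sequenced here, and no source used here gives the length of exposure, the share of supernatant or the origin of the macrophages. Both groups came from a single line, so the p-values measure only the spread between these libraries, which may be partly technical.

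YAP and TAZ are closely related proteins that bind no DNA themselves and activate genes through TEAD factors. The Hippo kinases MST1 and MST2 activate LATS1 and LATS2, which phosphorylate YAP and TAZ and so hold them in the cytoplasm, where angiomotins also bind them. In endothelium the pathway is known for its response to flow, stiffness and cell shape and for its part in vessel sprouting. Much of this control acts on phosphorylation and location, which RNA counts do not measure.

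The libraries held 13815695 and 18005840 counts in conditioned medium and 14966911 and 14493674 counts in control. CPM are counts scaled to the same nominal library size in every library. Scaled by library totals alone, 3 counts came to 0.167 CPM in the deepest library and 0.217 CPM in the shallowest. Every one of the 10 genes had at least 566 counts in each library. The 12 endothelial markers summed to 7497 and 7415 CPM in conditioned medium and 7269 and 7249 CPM in control, with Cdh5 at 2001 ± 17.8 CPM in conditioned medium and 1909 ± 20.8 CPM in control (mean ± SD, n = 2, here and below). Of the 11 tested, Flt1 (log2 fold change 0.38) and Eng (0.32) rose, Kdr (-0.16) and Emcn (-0.13) fell, and 7, Cdh5 among them, were not called by edgeR. DESeq2 called 2 of these markers higher and 0 lower. The junctional marker Cldn5 held 1 count in all. Of 12 macrophage markers, 9 had at most 5 counts in any library. Adgre1 had 0 counts and Ptprc 1 count in all 4 libraries together, and the summed level, nearly all of it Cd68, was 253 and 260 CPM in conditioned medium and 231 and 260 CPM in control. Other marker sums moved with the groups. The 6 epithelial markers summed to 14.6 and 14.0 CPM in conditioned medium and 7.73 and 8.83 CPM in control. Of these 6, 3 had at most 5 counts in any library, with Cdh1 at 0, and most of the sum was Krt18 and Krt19. Krt18 had 9.46 and 9.21 CPM in conditioned medium and 6.71 and 7.46 CPM in control. Krt19 had 4.62 and 4.55 CPM in conditioned medium and 0.746 and 0.890 CPM in control. By edgeR Krt19 was called higher (log2 fold change 2.47) and Krt18 was not called. The 6 fibroblast markers summed to 39.2 and 40.0 CPM in conditioned medium and 31.9 and 35.0 CPM in control, with Col1a2 and Lum at 0. Most of that sum was Pdgfra, which edgeR called higher (log2 fold change 0.28) and DESeq2 did not. Pdgfrb, the only other one tested, was not called. The part of either marker set in the results was not tested. The 8 smooth muscle markers, mainly Smtn, summed to 244 and 243 CPM in conditioned medium and 229 and 239 CPM in control.

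Among the 10 genes, Ccn2 and Thbs1 stood apart. Ccn2 was 1.65-fold lower and Thbs1 1.58-fold lower in conditioned medium. The coactivator genes Yap1 and Wwtr1 lay within 4% of control, and the target genes Ccn1 and Ankrd1 at 1.03-fold and 0.904-fold. Tead1 was at 0.898-fold and Amotl2 at 0.869-fold. In bulk libraries, fewer cells with a transcript and less of it per cell cannot be told apart. In this comparison edgeR's quasi-likelihood test called 2330 of 13897 genes at an adjusted p of 0.05, which is 16.8%, with 8.53% higher and 8.23% lower. Of the 10 genes 4 were past that threshold, all lower (Ccn2, Thbs1, Tead1 and Amotl2). Since this comparison was known when the genes were picked, nothing is read from that share. The median log2 fold change was -0.07 over the 10 genes and 0.00 over all genes tested, and the median absolute value was 0.10 and 0.13. For 8 of the 10 genes the conditioned medium and control CPM values lay fully apart, 5 of them lower and 3 higher, as they did for 57.2% of all genes tested.

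**Figure D1:**
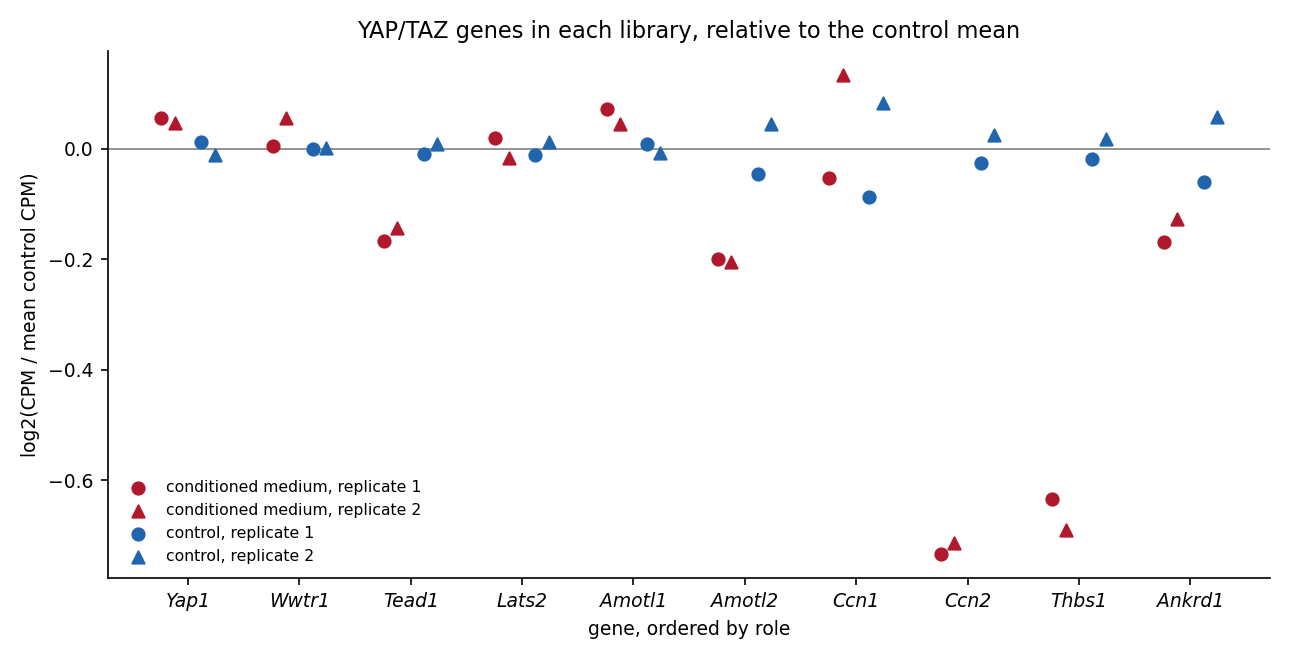
Level of each gene in each library as log2 of its CPM over the mean of the 2 control libraries; red marks conditioned medium and blue control, circles replicate 1 and triangles replicate 2. In both conditioned medium libraries Ccn2 and Thbs1 lie far below their controls, and the other 8 genes stay close to the control mean.

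TEAD factors recognise a short core sequence, and its letters were looked for in the stretch from 250 bases before to 50 bases after each transcription start in the RefSeq promoter table (GRCm38.p6, the build of mm10). Windows were found for 7 of the 10 genes, without Ccn2, Thbs1 and Tead1. Of these 7 genes, 6 held GGAATG on one strand or the other in at least 1 window, namely Yap1, Wwtr1, Lats2, Amotl2, Ccn1 and Ankrd1, against 16.6% of the 27025 genes with a window. Amotl1 held none. The AP-1 letters TGANTCA occurred in the windows of 0 of the 7 genes and of 8.97% of all genes. The E-box letters CACGTG, which do not overlap the others, occurred in 2 of the 7, Yap1 and Lats2, and in 8.09% of all genes. These matches describe the letters in the window and do not show binding. The 250 bases before the start are shown for the target genes Ccn1 and Ankrd1 and for Amotl2, whose windows hold the core. That choice was made with their fold changes known. Ccn2 and Thbs1 have no window, so the core cannot be set against the differences of these genes. The core stands in capitals, as GGAATG or as CATTCC where it lies on the other strand. Each is written 5′ to 3′ on the gene's own strand, from chr3:145649986-145650235 (minus) for Ccn1, chr19:36119845-36120094 (minus) for Ankrd1 and chr9:102717554-102717803 (plus) for Amotl2. The Amotl2 stretch lies inside the RefSeq span of that gene, 102717091 to 102733418, so its start is an internal one.
Ccn1: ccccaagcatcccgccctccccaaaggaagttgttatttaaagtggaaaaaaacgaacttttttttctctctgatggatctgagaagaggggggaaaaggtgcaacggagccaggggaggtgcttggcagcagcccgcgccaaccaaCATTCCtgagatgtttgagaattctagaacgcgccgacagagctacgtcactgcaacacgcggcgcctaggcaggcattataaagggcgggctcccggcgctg
Ankrd1: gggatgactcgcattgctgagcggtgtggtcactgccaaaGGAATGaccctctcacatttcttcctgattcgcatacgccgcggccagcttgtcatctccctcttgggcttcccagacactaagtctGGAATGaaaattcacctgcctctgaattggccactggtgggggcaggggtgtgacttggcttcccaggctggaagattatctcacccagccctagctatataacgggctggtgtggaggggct
Amotl2: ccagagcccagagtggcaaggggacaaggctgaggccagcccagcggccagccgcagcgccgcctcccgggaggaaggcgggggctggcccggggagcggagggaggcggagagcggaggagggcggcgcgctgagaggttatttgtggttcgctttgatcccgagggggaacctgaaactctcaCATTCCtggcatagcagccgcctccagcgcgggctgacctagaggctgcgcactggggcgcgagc
The Ccn1 match began 103 bases before the start, the Amotl2 match 65 bases before it, and the Ankrd1 matches 210 and 123 bases before it.

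**Figure D2:**
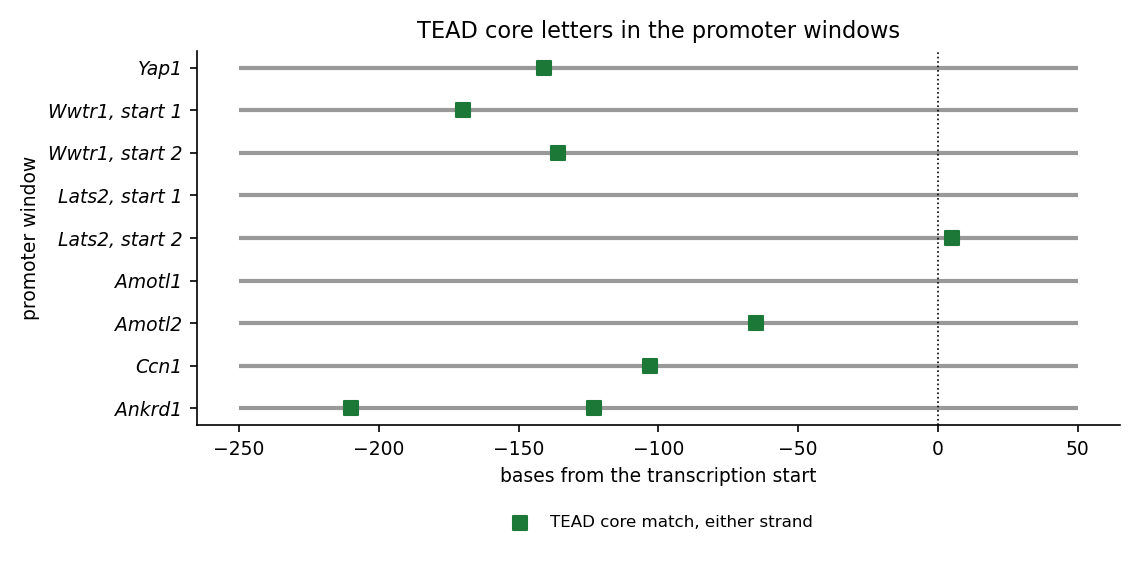
Position of each TEAD core match (green squares) in bases from the transcription start (dotted line) in the 9 promoter windows of 7 genes; grey lines span 250 bases before to 50 bases after the start, and Wwtr1 and Lats2 have 2 starts each. The matches of Ccn1, Amotl2 and Ankrd1 lie before the start, that of Lats2 lies 5 bases into the transcript, and Amotl1 has none. The starts shown for Amotl1 and Amotl2 and start 1 of Lats2 lie well inside the RefSeq spans of these genes. Those of Yap1, start 2 of Lats2 and start 1 of Wwtr1 lie just inside them.

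Yap1 and Wwtr1, the coactivators at the end of the Hippo cascade, differed little between the groups. Yap1 (chromosome 9, 7931999 to 8004638, mm10) had 212 and 211 CPM in conditioned medium, against 206 and 203 CPM in control, a log2 fold change of 0.05 ± 0.04 (SE). Both conditioned medium libraries were above both controls, by 3.54% on the fitted scale. Wwtr1 (chromosome 3, 57455644 to 57575910) had 489 and 506 CPM in conditioned medium and 487 and 488 CPM in control, a log2 fold change of 0.03 ± 0.04. Here the first conditioned medium library lay just above the controls and the second further above them. The ratio of Wwtr1 to Yap1 counts was 2.30 and 2.40 in conditioned medium and 2.36 and 2.41 in control, so the groups overlapped in it.

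Tead1, which encodes the DNA-binding partner, was lower. Tead1 (chromosome 7, 112679356 to 112906784) had 340 and 345 CPM in conditioned medium, against 379 and 384 CPM in control, a log2 fold change of -0.16 ± 0.04. Both conditioned medium libraries lay below both controls, and the gap between the groups was larger than that within either pair.

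The negative regulators did not share a direction. Lats2, a kinase that phosphorylates YAP and TAZ and is itself a target gene of theirs, had 81.1 and 79.0 CPM in conditioned medium and 79.3 and 80.7 CPM in control, a log2 fold change of 0.00 ± 0.05, with overlapping groups. It lies on chromosome 14 at 57689662 to 57746212. Amotl1, an angiomotin that binds YAP at cell junctions (chromosome 9, 14541966 to 14662974), had 649 and 637 CPM in conditioned medium and 622 and 614 CPM in control, a log2 fold change of 0.06 ± 0.04. Its conditioned medium libraries both lay above the controls. Amotl2, its close relative and another known YAP target gene, lies on the same chromosome at 102717091 to 102733418. It had 70.8 and 70.6 CPM in conditioned medium, against 78.8 and 83.8 CPM in control, a log2 fold change of -0.20 ± 0.06. Both conditioned medium libraries lay below the controls, which differed from each other by 0.09 on the log2 scale. The estimates for the 2 angiomotin genes thus differed in sign, though that of Amotl1 was small, and a difference between the genes was not tested.

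The secreted target genes held both the largest and some of the smallest differences. Ccn2 (chromosome 10, 24595442 to 24598683) encodes connective tissue growth factor, a matricellular protein. It had 3123 and 4123 counts in conditioned medium and 5432 and 5569 counts in control, which is 225 and 229 CPM against 368 and 381 CPM. The log2 fold change was -0.72 ± 0.04, and the groups were far apart compared with the 0.02 and 0.05 by which the pairs differed within them. Ccn1 (chromosome 3, 145646971 to 145649985) encodes CYR61, a matricellular protein of the same family. It had 100.4 and 114 CPM in conditioned medium and 98.1 and 110.3 CPM in control, a log2 fold change of 0.05 ± 0.06. Its groups overlapped, and the second library was the higher one in both pairs, by 0.19 in conditioned medium and 0.17 in control on the log2 scale. The ratio of Ccn2 to Ccn1 counts was thus lower in conditioned medium.

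Thbs1, which encodes thrombospondin, a matrix protein that restrains angiogenesis and activates latent TGF-beta, followed Ccn2. It lies on chromosome 2 at 118111876 to 118127133 and was the most abundant of the 10 genes in CPM in control. It had 8796 and 11017 counts in conditioned medium and 14361 and 14574 counts in control, which is 635 and 611 CPM against 973 and 998 CPM, a log2 fold change of -0.66 ± 0.04. The pairs differed within them by 0.06 and 0.04. By absolute log2 fold change Ccn2 stood above 97.0% and Thbs1 above 96.3% of all genes tested, Tead1 above 57.2% and Ccn1 above 20.5%. The ratio of Thbs1 to Ccn1 counts was 6.33 and 5.35 in conditioned medium, against 9.92 and 9.05 in control. Together the 10 genes took 2844 and 2846 CPM in conditioned medium and 3336 and 3391 CPM in control, and most of that gap was in Thbs1 and Ccn2.

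Ankrd1, the remaining target gene, encodes a nuclear ankyrin repeat protein known from heart muscle. Ankrd1 (chromosome 19, 36111965 to 36119844) had 40.9 and 42.0 CPM in conditioned medium, against 44.1 and 47.8 CPM in control, a log2 fold change of -0.15 ± 0.07. The groups did not overlap, but the controls differed by 0.12 from each other, and it was not past the threshold. Wwtr1, Lats2, Amotl1 and Ccn2 overlap predicted genes in RefSeq that have no row of their own in the table. The kit does not mark strand, so reads from such a neighbour cannot be told apart from theirs.

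**Figure D3:**
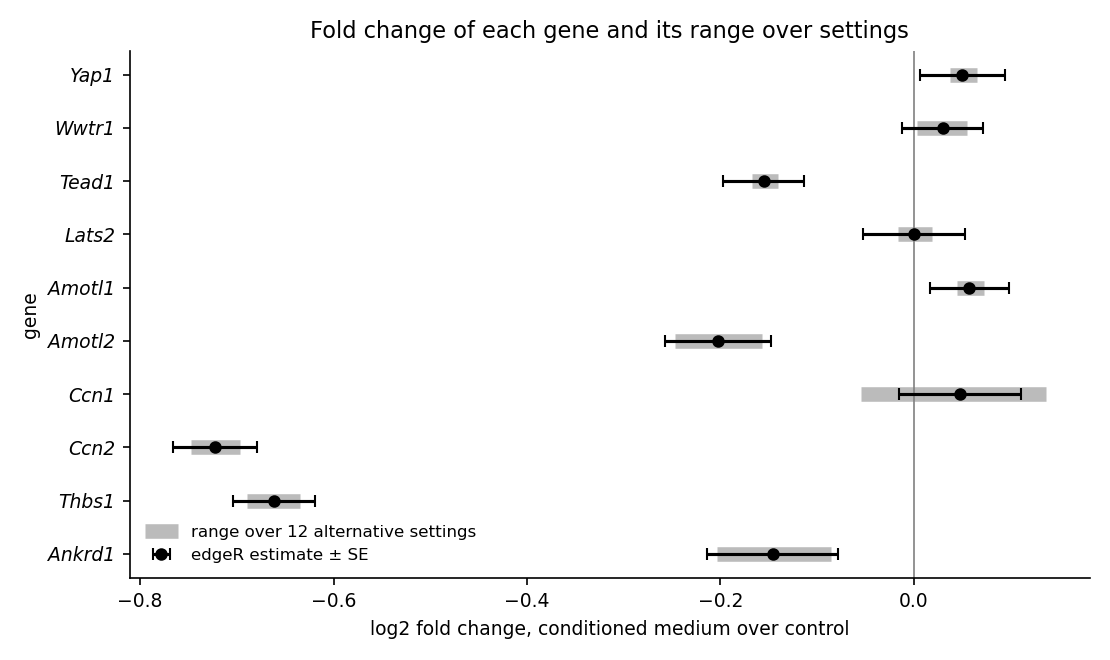
Log2 fold change of conditioned medium over control for each gene (points, with SE as bars) and the lowest and highest value over 12 alternative settings of the analysis (grey bands). The bands of Ccn2 and Thbs1 run from -0.75 to -0.70 and from -0.69 to -0.63, while that of Ccn1 crosses 0.

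Over the 12 alternatives Ccn1 had the widest range of log2 fold changes of the 10 genes. Which genes were past the threshold is again given as a description only. Tead1 and Amotl2 were not past it under DESeq2 nor without either conditioned medium library, and Amotl2 also not without control replicate 2. Ccn2 and Thbs1 were past it throughout, and the other 6 genes in none of the 12. The log2 fold change of Ccn1 ran from -0.05 to 0.14 and that of Lats2 from -0.02 to 0.02, so neither had a settled sign.

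Levels of different genes were compared per kilobase of exon, with lengths from the GENCODE M21 annotation, which may differ from the annotation used for counting. In conditioned medium Wwtr1 had 104 ± 2.57 CPM per kilobase and Thbs1 103 ± 2.80, and these neighbours overlapped. Ccn2 followed at 79.4 ± 0.789, Amotl1 at 63.9 ± 0.818 and Ccn1 at 53.2 ± 4.87. Tead1 came next at 25.3 ± 0.274, Yap1 at 22.9 ± 0.111, Ankrd1 at 14.4 ± 0.288, Lats2 at 11.5 ± 0.208 and Amotl2 at 11.2 ± 0.0233, and no further neighbours overlapped. In control the order opened with Thbs1 at 162 ± 2.88, Ccn2 at 131 ± 3.27 and Wwtr1 at 102 ± 0.0846 CPM per kilobase. Lats2 was last there, at 11.5 ± 0.140, below Amotl2 at 12.9 ± 0.570, and the other 5 genes kept the same places. Thbs1 and Ccn2 thus led the group in control, where no neighbours overlapped, and stood level with or below Wwtr1 in conditioned medium. In both groups TAZ RNA was more abundant per length than YAP RNA.

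**Figure D4:**
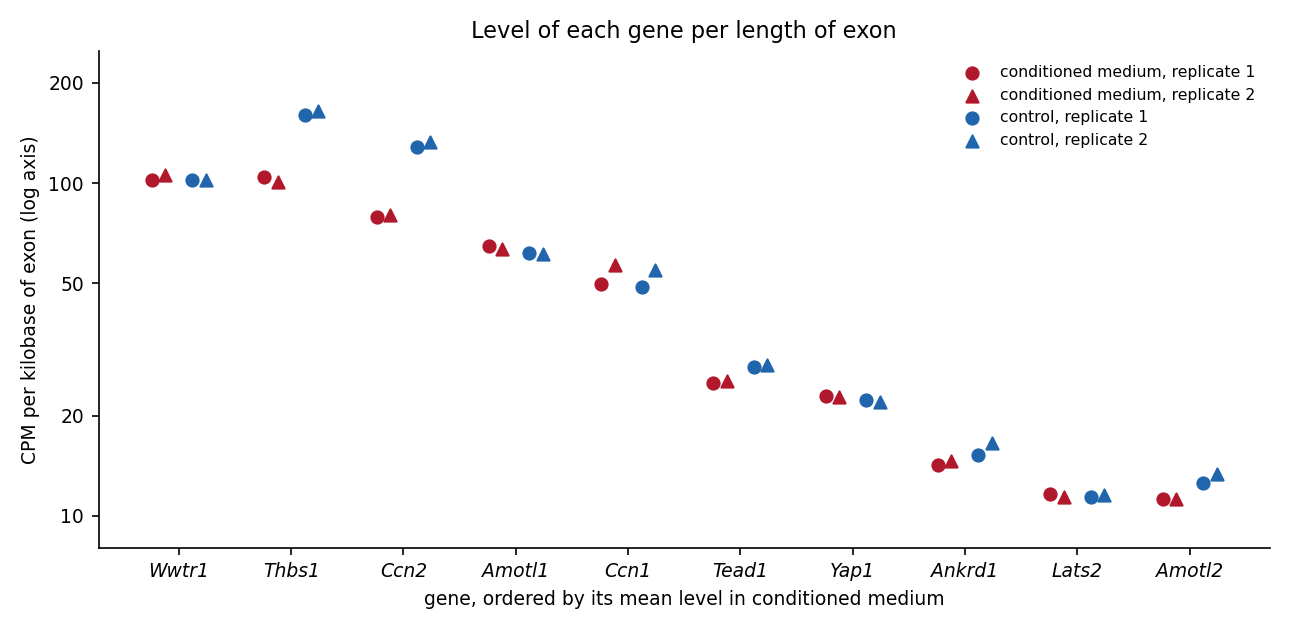
Level of each gene per kilobase of exon on a log axis, ordered by the mean in conditioned medium; red marks conditioned medium and blue control, circles replicate 1 and triangles replicate 2. Thbs1 and Ccn2 lie at 162 and 131 in control, above Wwtr1, and at 103 and 79.4 in conditioned medium.

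Over the 4 libraries the genes most like Yap1 in log2 CPM relative to the control mean were Nek9, Men1 and Ccar2, at Euclidean distances of 0.00846, 0.00979 and 0.00996 among 10683 genes that have a symbol and average 5 CPM or more. These distances only describe 4 libraries. The genes most like Ccn1 were Tep1, Crem and Myd88, at 0.0201, 0.0204 and 0.0234.

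The rest of the Hippo cascade moved little and in both directions. Of 31 kinases and upstream regulators tested, 4 rose, 4 fell and 23 were not called, with a median log2 fold change of -0.01 (all genes, 0.00) and with 16.8% of all genes called as background. Frmd6, a junctional protein that activates the cascade, fell most, to 384 and 361 CPM in conditioned medium, against 454 and 457 CPM in control (log2 fold change -0.29 ± 0.04; edgeR adjusted p = 8.75e-05). Its conditioned medium libraries lay well below both controls. Sav1, the scaffold of the MST kinases, fell to 139 and 136 CPM in conditioned medium, against 161 and 156 CPM in control (-0.21 ± 0.05; edgeR adjusted p = 0.00362). Nf2, which encodes the upstream activator merlin, fell by 0.16 ± 0.05 (edgeR adjusted p = 0.0264) and Rassf1, a binding partner of the MST kinases, by 0.24 ± 0.07 (edgeR adjusted p = 0.0274). Mark4, a kinase that restrains the cascade, rose to 51.3 and 51.1 CPM in conditioned medium, against 39.4 and 42.1 CPM in control (0.33 ± 0.07; edgeR adjusted p = 0.00127). Limd1, a LIM protein that binds LATS kinases, rose by 0.25 ± 0.06 (edgeR adjusted p = 0.00489). The other rises were Taok2 (0.19 ± 0.04) and Map4k4 (0.18 ± 0.04), kinases upstream of LATS that were named after their values were seen. The core kinases were not called, though Stk3 was without control replicate 2. Lats1 had 75.2 and 67.9 CPM in conditioned medium and 71.1 and 74.4 CPM in control, Stk3 (MST2) 95.8 and 97.3 against 107 and 95.6 CPM, and Stk4 (MST1) 43.4 and 43.6 against 47.2 and 49.4 CPM. Without conditioned medium replicate 2, 0 genes of this list were called, and without conditioned medium replicate 1 only Frmd6 and Mark4 were. DESeq2 called 5, namely Frmd6, Sav1, Mark4, Taok2 and Map4k4.

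Of the other TEAD genes, Tead3 and Tead4 rose and Tead2 was not called. Tead4 rose to 33.7 and 36.4 CPM in conditioned medium, against 27.0 and 29.9 CPM in control (log2 fold change 0.31 ± 0.08; edgeR adjusted p = 0.0102). Tead3 rose to 9.39 and 10.4 CPM in conditioned medium, against 7.18 and 7.46 CPM in control (0.44 ± 0.14; edgeR adjusted p = 0.0352). Tead2 had 69.5 and 67.4 CPM in conditioned medium and 62.7 and 64.9 CPM in control (0.10 ± 0.06). Whether these genes differ from Tead1 in their response was not tested. Of 21 TEAD factors and partners tested, 3 rose, 1 fell and 17 were not called, with a median of -0.01, where 16.8% of all genes were called. The other rise was Smad3, a TGF-beta effector that binds TAZ (0.15 ± 0.05; edgeR adjusted p = 0.0307). The fall was Tjp1, the tight junction scaffold ZO-1, with 657 and 643 CPM in conditioned medium and 752 and 741 CPM in control (-0.20 ± 0.04; edgeR adjusted p = 0.00188). Vgll4, a competitor of YAP for TEAD (0.14 ± 0.09), and Amot, the third angiomotin (-0.14 ± 0.07), were not called. Without either conditioned medium library 0 of these genes were called by edgeR, and DESeq2 called Tjp1 alone.

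Of a published YAP/TAZ target signature, 17 genes lie outside the 10, and 13 of these were tested. Among the 13, 3 fell, where 8.23% of all genes did, 0 rose and 10 were not called, with a median of -0.03. By edgeR and by DESeq2 alike, 0 genes were higher at an unadjusted p under 0.05. Tgfb2, a TGF-beta ligand, fell to 36.8 and 34.2 CPM in conditioned medium, against 47.2 and 51.5 CPM in control (log2 fold change -0.48 ± 0.07; edgeR adjusted p = 7.09e-05). Gadd45a, a growth arrest and DNA damage gene, fell to 45.7 and 44.8 CPM, against 61.4 and 64.0 CPM in control (-0.47 ± 0.06; edgeR adjusted p = 1.45e-05). Crim1, a transmembrane protein that binds bone morphogenetic proteins, fell to 340 and 326 CPM in conditioned medium, against 417 and 434 CPM in control (-0.35 ± 0.04; edgeR adjusted p = 9.44e-06). All 3 remained called under all 12 alternatives.

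Further genes described as targets went both ways. Of 24 tested, 8 rose, 4 fell and 12 were not called, with a median of 0.07, where 8.53% of all genes rose and 8.23% fell. Edn1, the vasoconstrictor endothelin, fell to 3.90 and 3.83 CPM in conditioned medium, against 10.6 and 13.8 CPM in control (log2 fold change -1.66 ± 0.17; edgeR adjusted p = 8.72e-07). Angpt2, a context-dependent ligand of the Tie2 receptor, fell to 88.2 and 78.8 CPM, against 146 and 150.3 CPM in control (-0.83 ± 0.05; edgeR adjusted p = 3.00e-09). Both values lie below the log2 fold change of each of the 10 genes. Inhba, an activin subunit, rose by 0.58 ± 0.19 (edgeR adjusted p = 0.0429). Edn1 and Angpt2 remained called under all 12 alternatives, whereas Inhba was called under 7. Ptgs2 (-0.26 ± 0.07) and Ccnd1 (-0.19 ± 0.04), named after their values were seen, were the other falls. Among the other rises, also named after their values were seen, were Itgb2 (0.36 ± 0.04), Msln (0.29 ± 0.08) and Jag1 (0.28 ± 0.05). Lama5 (0.25 ± 0.05), Slit2 (0.24 ± 0.06) and Fstl1 (0.13 ± 0.04) rose as well. Without either conditioned medium library 5 of the 24 were called, and DESeq2 called 7.

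**Figure D5:**
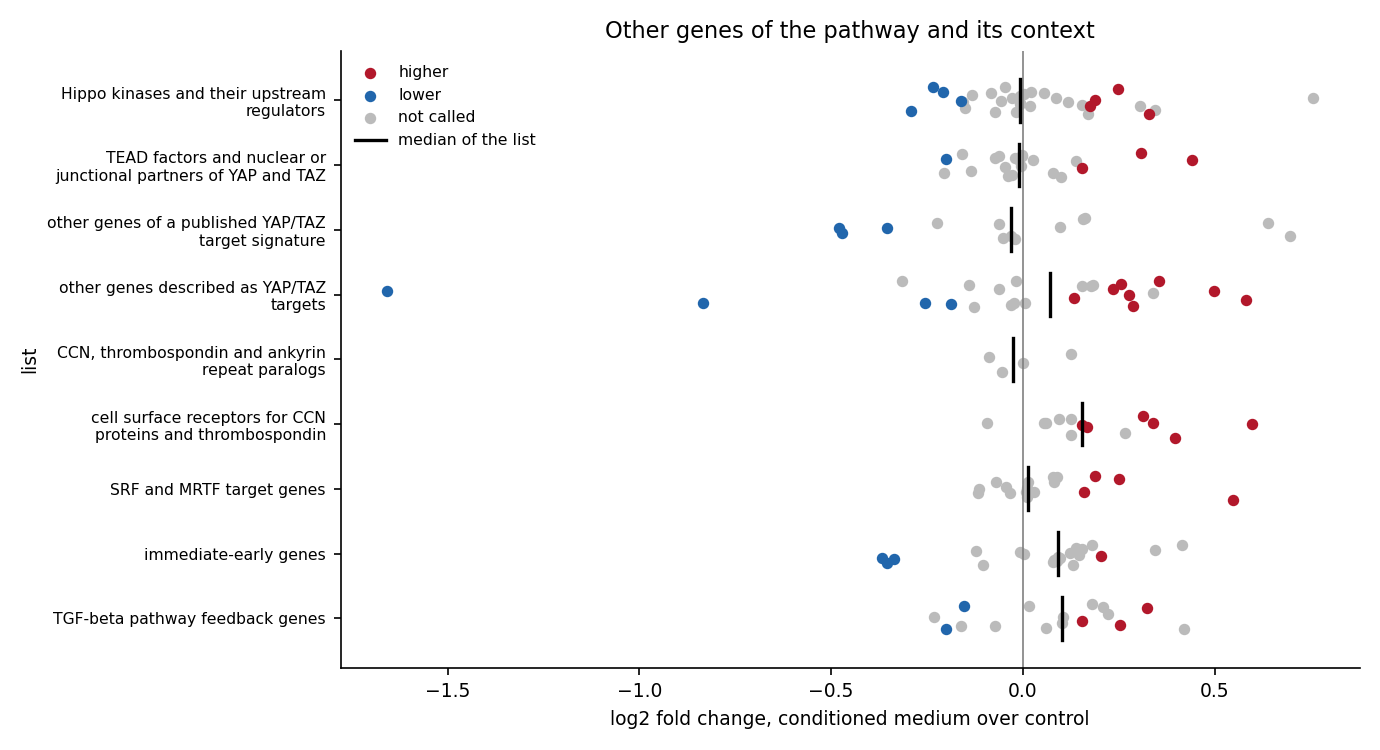
Log2 fold change of conditioned medium over control for each tested gene of the 9 lists (points, spread vertically to separate them), red for genes called higher, blue for genes called lower and grey for genes not called at an adjusted p of 0.05; black bars are list medians. The receptor list has 6 red and 0 blue points, and the published target signature 3 blue and 0 red.

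Receptors of the secreted target proteins were counted as well. Of 13 receptors for CCN proteins and thrombospondin tested, 6 rose, 0 fell and 7 were not called, with a median log2 fold change of 0.15 (all genes, 0.00), where 8.53% of all genes rose. At an unadjusted p under 0.05, 1 receptor was lower by edgeR and 0 by DESeq2. Lrp1, an endocytic receptor that clears both, rose to 1399 and 1404 CPM in conditioned medium, with a mean of 1127 ± 67.3 CPM in control (0.31 ± 0.05; edgeR adjusted p = 5.40e-05). Itga6, a laminin receptor subunit that also binds CCN proteins, rose to 438 and 445 CPM, against 365 and 334 CPM in control (0.34 ± 0.05; edgeR adjusted p = 2.96e-05). Sdc1, a heparan sulfate proteoglycan, rose by 0.40 ± 0.06 (edgeR adjusted p = 0.000137) and the collagen receptor subunit Itga2 by 0.60 ± 0.15 (edgeR adjusted p = 0.00938). The other rises were Itga5 and Lrp6, named after their values were seen. Cd47 and Cd36, both thrombospondin receptors, were also picked after their values were seen. Cd47 had 269 and 263 CPM in conditioned medium and 253 and 244 CPM in control and was not called. Cd36 had at most 2 counts in any library. DESeq2 called 3 of these receptors, and so did edgeR without either conditioned medium library.

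The relatives of the target genes that could be tested were not called. Of 10 CCN, thrombospondin and ankyrin repeat paralogs, 6 did not pass the filter on low counts. Among the 4 tested, Ccn3, Ccn4, Thbs3 and Ankrd23, 0 rose and 0 fell by edgeR or by DESeq2. At an unadjusted p under 0.05, edgeR gave 1, Ccn4, and DESeq2 gave 0. Ccn4, another CCN protein, had 61.2 and 64.2 CPM in conditioned medium and 56.2 and 59.0 CPM in control (log2 fold change 0.12 ± 0.06; edgeR adjusted p = 0.165). Ccn3, named after its values were seen, had 168 and 152 CPM in conditioned medium and 168 and 163 CPM in control.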

How the data were processed

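Libraries of total RNA from mAEC cells had been made with a TruSeq RNA kit, per the labels, which does not mark strand. The authors deposited raw counts per gene with Entrez identifiers. STAR 2.5.2b, featureCounts, Subread 1.4.6-p1 and mm10 are named in the submitters' processing notes; no source used here gives the counting settings or the annotation release. Symbols and coordinates came from RefSeq GRCm38.p6, the same build, and 25275 of 27179 rows matched. Unmatched rows held 6.31% of counts and stayed in the fit.

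These counts entered edgeR 4.0.16 (R 4.3.3) after filterByExpr (minimum count 10, total 15), with TMM scaling (factors 0.987 to 1.01) and the two-sided quasi-likelihood test without a replicate block, adjusted by Benjamini-Hochberg over all 13897 genes tested, with a call at an adjusted p of 0.05. The fit had 2 residual degrees of freedom. SE was taken as the size of the log2 fold change divided by the root of F. CPM use TMM-scaled library sizes. The procedure was tested on simulated data. Limits from counts cover counting error only.

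The 10 genes and the 9 pathway and 5 marker lists were chosen with earlier results of these data known. Named genes are the 10, up to 4 called genes with the largest change per pathway list or the gene with the smallest p, 10 cascade genes always given, and the 3 nearest to Yap1 and to Ccn1; 1 gene that this rule names is not reported here. The 12 alternatives were DESeq2 1.42.0, leaving out each library, a replicate block, a robust estimate of spread, dropping the filter, a filter at 1 CPM in 2 libraries, and scaling by RLE, by upper quartile or by totals alone.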

Additional observations from a re-analysis of the deposited data

How the results depend on the processing

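With 2 libraries a group, the calls depended most on the conditioned medium pair (SD of the log2 ratio within pairs 0.129, control 0.159). Leaving out each library in turn gave 323 to 1485 genes higher and 246 to 1622 lower, against 1186 and 1144, and DESeq2 gave 473 and 445. The lowest counts came without conditioned medium replicate 2, while leaving out replicate 1 gave 463 and 345. The cause was not tested, but leaving out a conditioned medium library takes the spread from the control pair alone, the lone library being assumed to vary likewise. Of the 10 YAP/TAZ genes, 2 to 4 were past the threshold as lower on leaving out a library and 2 in DESeq2.

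The ranges on leaving out a library, with genes higher first, were 0 to 6 and 0 to 6 for the Hippo kinases and regulators, 0 to 3 and 0 to 3 for TEAD factors and partners, 0 to 1 and 3 to 4 for the published target signature, 3 to 8 and 2 to 5 for the other targets, and 3 to 9 and 0 to 1 for the receptors. They were 0 to 4 and 0 to 3 for SRF targets, 0 to 3 and 2 to 3 for immediate-early genes, and 0 to 5 and 0 to 3 for TGF-beta genes. DESeq2 called 2 Hippo genes lower, 0 TEAD factors and partners higher, 4 other targets higher, 3 receptors higher, 2 SRF targets higher, and 1 TGF-beta gene in each direction. With no count filter 2 Hippo genes and 1 TGF-beta gene fell, and with upper-quartile scaling 2 immediate-early genes rose. The other settings moved no count by over 1.5 times.

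Lats1 and Stk3 had log2 fold changes of -0.03 and -0.07 and changed sign. Lats1 ran from -0.0988 to 0.0468 on leaving out a library, with 0.00197 without the second control and 0.0468 without the second conditioned medium library. Stk3 ran from -0.154 to 0.0153, its value without the first control. With the replicate number as a block, 1361 genes rose and 1310 fell. The submitters state no pairing, so the numbers were not taken as pairs. Across 11204 genes, same-numbered libraries did not deviate together (correlation -0.03). That value does not speak for single genes, and Ccn1 was higher in the second library of both groups. The block moved no count of YAP/TAZ genes past the threshold. Scaling moved the median log2 fold change of all genes by at most 0.0148.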

Other observations

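Several of the 10 genes are also known to answer to other pathways, and 3 lists of such genes were counted in the same fit, in which 8.53% of all genes rose, 8.23% fell and 16.8% were called in all. The first list holds SRF and MRTF target genes, which follow actin dynamics and include cytoskeletal genes, and the regulators Srf, Mrtfa and Mrtfb themselves. Of its 17 genes tested, 4 rose and 0 fell by edgeR, with a median log2 fold change of 0.01. At an unadjusted p under 0.05, 2 were lower by edgeR and 1 by DESeq2, whose adjusted calls had 0 lower. Those that rose were Fhl2, a LIM domain cofactor (0.55 ± 0.11; edgeR adjusted p = 0.00212), Mrtfa, the coactivator itself (0.25 ± 0.08; edgeR adjusted p = 0.0288), Lima1 (0.19 ± 0.05) and the actin gene Actg1 (0.16 ± 0.04). Of 21 immediate-early genes, the class to which Ccn1 also belongs, 1 rose and 3 fell, with a median of 0.09. Klf6, a zinc finger factor, fell to 535 and 528 CPM in conditioned medium, against 693 and 678 CPM in control (-0.37 ± 0.04; edgeR adjusted p = 3.47e-06). Btg2, an antiproliferative gene, fell by 0.35 ± 0.06, Egr1 by 0.34 ± 0.09 (edgeR adjusted p = 0.0107), and the flow-responsive factor Klf2 rose by 0.20 ± 0.05 (edgeR adjusted p = 0.00338).

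Of 16 genes of TGF-beta signalling, which also drives Ccn2, 3 rose and 2 fell, with a median of 0.10. The TGF-beta ligand that fell and the TGF-beta effector that rose in the lists above are not among these 16. Ltbp4, a latent TGF-beta binding protein, rose by 0.32 ± 0.08 (edgeR adjusted p = 0.00946), Smurf1, a ubiquitin ligase, by 0.25 ± 0.04 (edgeR adjusted p = 0.000397) and the coreceptor Tgfbr3 by 0.15 ± 0.05 (edgeR adjusted p = 0.0265). The signalling receptor Tgfbr2 fell to 300 and 309 CPM in conditioned medium, against 349 and 351 CPM in control (-0.20 ± 0.04; edgeR adjusted p = 0.00248), and Tgfbr1, named after its values were seen, fell by 0.15 ± 0.05. Of the genes in these 2 paragraphs, Klf6 and Btg2 were called under all 12 alternatives, Fhl2 and Smurf1 were lost without conditioned medium replicate 2, and the other genes named were lost without either conditioned medium library. DESeq2 also did not call Egr1, Mrtfa, Lima1, Ltbp4, Tgfbr3 and Tgfbr1. Egr1 and Mrtfa were lost without control replicate 2 as well, and Tgfbr1 without the count filter.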
